A study of Mus musculus with 8 samples.

Results

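The genes described here are 10 neuronal calcium-binding proteins of the EF-hand superfamily, taken by symbol out of the 35968 genes to which the transcripts of sorted SST neurons could be assigned. They are the calcium buffers *Calb1* (calbindin), *Calb2* (calretinin) and *Pvalb* (parvalbumin), the neuronal calcium sensors *Hpca* (hippocalcin), *Hpcal1*, *Hpcal4*, *Vsnl1* (visinin-like 1), *Ncald* (neurocalcin delta) and *Ncs1* (neuronal calcium sensor 1), and the EF-hand adaptor *Necab1*. All 10 were found. Cells came from the microdissected lateral tuberal nucleus (TN) of the hypothalamus of 4 female and 4 male adult, gonadally intact mice on a C57BL/6J background that carried 1 copy of *Sst-Cre*, and every mouse received AAV2-flex-tdTomato in the TN. Cre is expressed from the *Sst* locus, so red fluorescence marks cells that took up the virus and had Cre activity at or after its injection, and each library is a sorted pool from 1 mouse. No library of unsorted tissue and no uninjected group was analysed here. The 10 genes were chosen by family, with measured values of the same female and male mice in view, in which *Hpca* was among the genes that differed. The female and male values of the members are therefore a description of these mice and not independent evidence of a difference.

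An EF hand is a helix-loop-helix whose short acidic loop holds a calcium ion. Buffers such as calbindin, calretinin and parvalbumin take up calcium after a spike and shape how far and how long the signal lasts, and they have long served to divide inhibitory neurons into classes. The sensors instead change shape when they bind calcium. In most of them a fatty acid at the N terminus is then exposed, so that the protein moves to the membrane and acts on channels, receptors or kinases.

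The members share more sequence by subfamily than by name. Among the coding sequences of the main transcripts, hippocalcin and HPCAL1 were identical at 93.8% of residues, HPCAL1 and neurocalcin delta at 89.6%, and HPCAL4 and visinin-like 1 at 89.5%. Hippocalcin and neuronal calcium sensor 1 were identical at 57.0%, and calbindin and calretinin at 57.2%. The 6 sensors were 190 to 193 residues long, had a glycine directly after the start methionine, where the fatty acid is attached, and held 3 matches to the EF-hand loop pattern. Calbindin had 4 matches in 261 residues, calretinin 5 in 271, parvalbumin 2 in 110 and NECAB1 1 in 352. The bases that encode the first matching loop of the sensors, residues 73 to 84, are shown side by side. They were taken from the GENCODE M21 transcripts and are written 5′ to 3′, with capitals at bases that differ from *Hpca*.
Hpca: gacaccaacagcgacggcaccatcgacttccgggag
Hpcal1: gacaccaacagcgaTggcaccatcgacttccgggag
Hpcal4: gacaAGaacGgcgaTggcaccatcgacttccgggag
Vsnl1: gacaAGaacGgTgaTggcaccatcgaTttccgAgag
Ncald: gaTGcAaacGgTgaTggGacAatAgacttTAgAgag
Ncs1: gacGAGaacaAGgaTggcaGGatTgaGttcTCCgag
Over this loop *Hpcal1* differed from *Hpca* at 1 base, *Hpcal4* at 4, *Vsnl1* at 7, *Ncald* at 12 and *Ncs1* at 13, whereas the encoded loop of *Hpcal1* was the same as that of *Hpca*. These counts did not follow identity over the whole protein, which with hippocalcin was 88.1% for neurocalcin delta and 67.4% for HPCAL4. The reads of such close relatives could be confused only where longer stretches are identical. Of all stretches of 31 bases in its transcripts, *Hpca* shared 1.41% with another gene, *Vsnl1* 0.675%, *Ncald* 3.01% and *Hpcal1* 19.7%. Most of the stretches that *Hpcal1* shared were with genes outside the family. By this measure *Hpcal1* shared the most of the 10, so the assignment of its reads is uncertain.

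Libraries held 7.83 to 17.6 estimated counts in units of 1000000. A single gene, *Lars2*, took 9.34% to 34.4% of them, and TMM factors, which correct for such differences in composition, lay between 0.841 and 1.16. Levels are given per mouse as counts per 1000000 (CPM) on this scale, which allow a gene to be compared between mice, and as transcripts per 1000000 (TPM), which correct for length and allow genes to be compared with each other. A count of 3 was taken as the limit of detection and corresponded to 0.148 to 0.458 CPM, which covers counting error only. *Sst* itself lay between 292 and 526 CPM and *Gad1*, which makes GABA, between 202 and 341 CPM in the 8 libraries. *Slc17a7*, the transporter of cortical glutamatergic neurons, stayed under 3 counts in every mouse. *Slc17a6*, the other glutamatergic marker measured, lay between 51.6 and 141 CPM. Nothing in the labels gives the litter or sorting day of a mouse, and p-values measure the spread between these mice.

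Most of the sensors, calbindin and calretinin were abundant in these neurons, and parvalbumin was almost absent. *Vsnl1* had the highest mean TPM of the 10 at 272 ± 81.0 (SD, n = 8 mice), which placed it at rank 448 of all genes. *Calb1* followed at 249 ± 82.2, *Ncald* at 213 ± 27.3, *Hpcal4* at 191 ± 35.0, *Calb2* at 147 ± 21.6 and *Hpcal1* at 126 ± 30.4 TPM. *Ncs1* stood at 62.4 ± 7.74, *Necab1* at 19.6 ± 6.32 and *Pvalb* at 0.401 ± 0.435 TPM. *Hpca*, with a mean of 76.8 TPM, spread widely, from 39.2 to 131 TPM.

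Most neighbours in this order were not clearly apart. *Vsnl1* exceeded *Calb1* in all 8 mice, but by a ratio of means of 1.09 and with overlapping ranges. *Calb1* exceeded *Ncald* in 5 of 8 mice, the 4 females and 1 male. *Hpca* exceeded *Ncs1* in each of the 4 females and in 0 of the 4 males, so the place of hippocalcin in the order depended on sex. Ranges did not overlap between *Ncs1* and *Necab1*, or between *Necab1* and *Pvalb*. The rank of *Calb1* also depended on which transcripts were counted, since it fell from 2 to 6 among the 10 when protein-coding transcripts alone were summed.

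**Figure D1:**
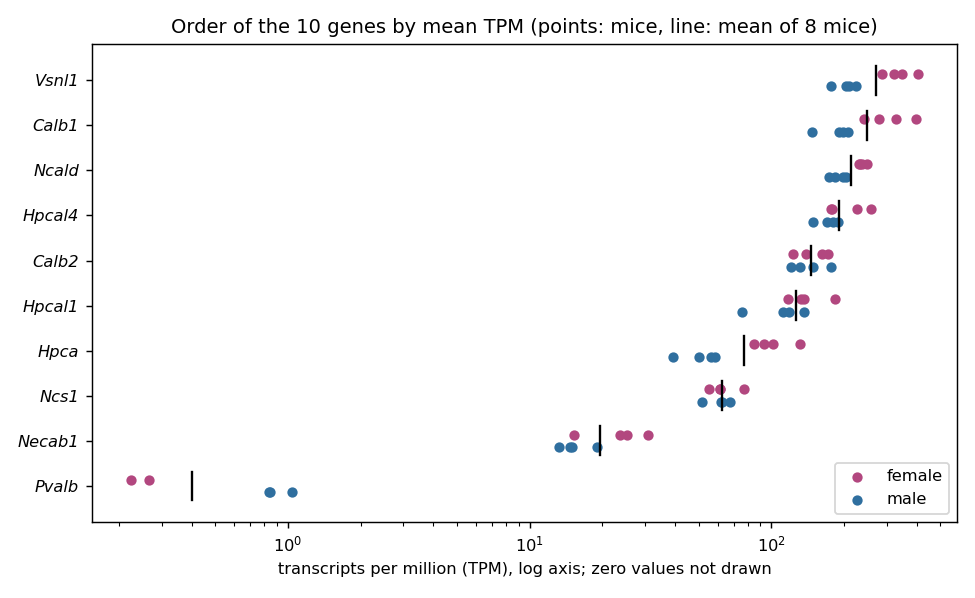
Level of each gene in TPM on a log axis, with 1 point per mouse and a line at the mean of 8 mice. Female and male points separate for *Hpca*, *Vsnl1*, *Calb1* and *Ncald*. They overlap for *Hpcal4*, *Calb2*, *Hpcal1*, *Ncs1* and *Necab1*, and *Pvalb* lies at or under 1.04 TPM.

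The only comparison in the labels is between the sexes. Of the 9 members with enough counts to be tested, 2 passed an adjusted p under 0.05, *Hpca* and *Vsnl1*, both higher in females (quasi-likelihood test of edgeR, p-values adjusted by Benjamini-Hochberg over 15194 genes). Among all genes tested, 0.112% were called higher in females. In CPM every female lay above every male in 5 of the 9 members, where this held for 6.48% of all genes tested. DESeq2's Wald test, the tool the study used, called 4 of the 9, where it called 4.38% of all genes with an adjusted p higher in females. Because the members were chosen with this contrast in view, nothing is read from these counts. The log2 fold change, female over male, was positive in 8 of 9 members, against 49.4% of all genes tested, with a median of 0.42. Over all genes tested the median was -0.0043 and the quartiles were -0.27 and 0.19.

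Hippocalcin, a sensor best known from hippocampal pyramidal cells, showed the largest log2 fold change of the 9 tested. *Hpca* (ENSMUSG00000028785.13, chr4:129111570-129122036, minus strand, mm10) was at 73.0, 68.3, 84.1 and 77.2 CPM in females 1 to 4. In males 1 to 4 it was at 37.5, 33.7, 38.0 and 42.4 CPM. The lowest female thus stood well above the highest male, and the spread within each sex was small, with a coefficient of variation of 8.88% in females and 9.42% in males. Its log2 fold change was 1.00 ± 0.102 (SE) with an adjusted p of 0.00655 by edgeR's quasi-likelihood test. Leaving out any 1 mouse kept the log2 fold change between 0.94 and 1.06 and the adjusted p by edgeR between 0.0154 and 0.0484. *Tmem54* overlaps 57 bases, or 1.95%, of the exons of *Hpca* on the opposite strand, and the strand setting of the counting is not given in the sources used here, so reads from that stretch cannot be told apart.

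Visinin-like 1, a sensor that cycles between cytosol and membrane and affects receptor trafficking, was the other member that passed. *Vsnl1* (ENSMUSG00000054459.8, chr12:11325242-11436613, minus strand) was at 288, 344, 351 and 333 CPM in females 1 to 4. In males 1 to 4 it was at 210, 190, 225 and 215 CPM. The sexes did not overlap, with a log2 fold change of 0.65 ± 0.0850 (SE) and an adjusted p of 0.0221 by edgeR. This call was less stable than that of *Hpca*, since it was kept in 2 of the 8 fits without 1 mouse, those without female 1 and without male 1, while the adjusted p by edgeR rose to as much as 0.113 in the other 6 and the log2 fold change stayed between 0.60 and 0.71.

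HPCAL4, its closest relative in sequence, is enriched in brain and modulates voltage-gated calcium channels. *Hpcal4* (ENSMUSG00000046093.9, chr4:123183227-123194701, plus strand) was at 411, 434, 521 and 452 CPM in females and at 370, 326, 343 and 323 CPM in males. In CPM each female was above each male, although female 1 and male 1 were close. In TPM the sexes overlapped, with females 1 and 2 at 178 and 176 TPM and males 1 and 3 at 189 and 180 TPM. Its log2 fold change of 0.42 ± 0.0882 did not pass (adjusted p = 0.0798 by edgeR), whereas it passed by DESeq2 (adjusted p = 0.00115) and in edgeR without female 1 (adjusted p = 0.0437) or without male 1 (adjusted p = 0.0474).

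The relatives of hippocalcin differed less. *Ncald* (ENSMUSG00000051359.15, chr15:37366175-37792570, minus strand), whose product binds clathrin and actin in a calcium-dependent way, was at 240, 266, 238 and 244 CPM in females and at 222, 206, 191 and 227 CPM in males. These groups did not overlap, but the gap between the lowest female and the highest male was small, and the log2 fold change of 0.22 ± 0.0763 did not pass (adjusted p = 0.169 by edgeR). *Hpcal1* (ENSMUSG00000071379.2, chr12:17690856-17791933, plus strand) was at 95.2, 106, 123 and 83.0 CPM in females and at 79.9, 104, 84.4 and 57.3 CPM in males. Here the sexes overlapped, and the spread between males was a coefficient of variation of 23.6% (log2 fold change 0.32 ± 0.179, adjusted p = 0.334 by edgeR).

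Neuronal calcium sensor 1, which regulates a phosphatidylinositol 4-kinase and dopamine receptors, varied little within each sex, with a coefficient of variation of 4.97% in females and 7.27% in males. *Ncs1* (ENSMUSG00000062661.6, chr2:31245823-31295989, plus strand) was at 127, 132, 140 and 140 CPM in females and at 130, 114, 114 and 128 CPM in males. Male 1 was above female 1, so the groups overlapped, and the log2 fold change was 0.15 ± 0.0756 (adjusted p = 0.301 by edgeR).

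The buffers followed 3 different patterns. *Calb1* (ENSMUSG00000028222.2, chr4:15881264-15908064, plus strand), which encodes the fast, high-affinity buffer calbindin, was at 273, 254, 356 and 318 CPM in females and at 212, 163, 217 and 218 CPM in males. All females were above all males, and males 1, 3 and 4 were nearly equal while male 2 was lower. A log2 fold change of 0.57 ± 0.130 did not pass in edgeR (adjusted p = 0.0874), whereas it passed in DESeq2 (adjusted p = 0.00223). Without any 1 mouse the adjusted p by edgeR stayed between 0.0532 and 0.224.

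*Calb2* (ENSMUSG00000003657.9, chr8:110137502-110168210, minus strand), which encodes calretinin, was at 94.7, 126, 72.5 and 106 CPM in females and at 120, 88.1, 90.0 and 106 CPM in males. The highest and the lowest value were both female. The means were 99.8 ± 22.5 (SD, n = 4) and 101 ± 14.8 CPM (SD, n = 4), and the log2 fold change was -0.02 ± 0.167 (adjusted p = 0.961 by edgeR), with a sign that changed with the mice and the scaling used. *Calb1* and *Calb2*, although related, thus gave different values between the sexes, and the difference between their fold changes was not tested.

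*Pvalb* (ENSMUSG00000005716.16, chr15:78191114-78206400, minus strand), the buffer of fast-spiking cortical interneurons, had 1, 1, 0 and 0 counts in females and 5, 0, 4 and 4 counts in males. It was under the limit of 3 counts in 5 of 8 mice and was not tested. A count of 0 allows up to 0.148 CPM in female 3, 0.270 CPM in female 4 and 0.275 CPM in male 2.

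*Necab1* (ENSMUSG00000040536.15, chr4:14952245-15149794, minus strand) encodes a neuronal protein with an N-terminal EF hand and a domain related to antibiotic-synthesis monooxygenases. It was at 27.8, 47.2, 40.8 and 50.8 CPM in females and at 33.1, 26.4, 28.5 and 26.8 CPM in males. Female 1 lay among the males and the other 3 females lay above them. Its log2 fold change was 0.53 ± 0.180 (adjusted p = 0.168 by edgeR), and it passed without female 1 (log2 fold change 0.69, adjusted p = 0.0407 by edgeR). *Gm11837* overlaps 7.83% of its exons on the opposite strand.

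**Figure D2:**
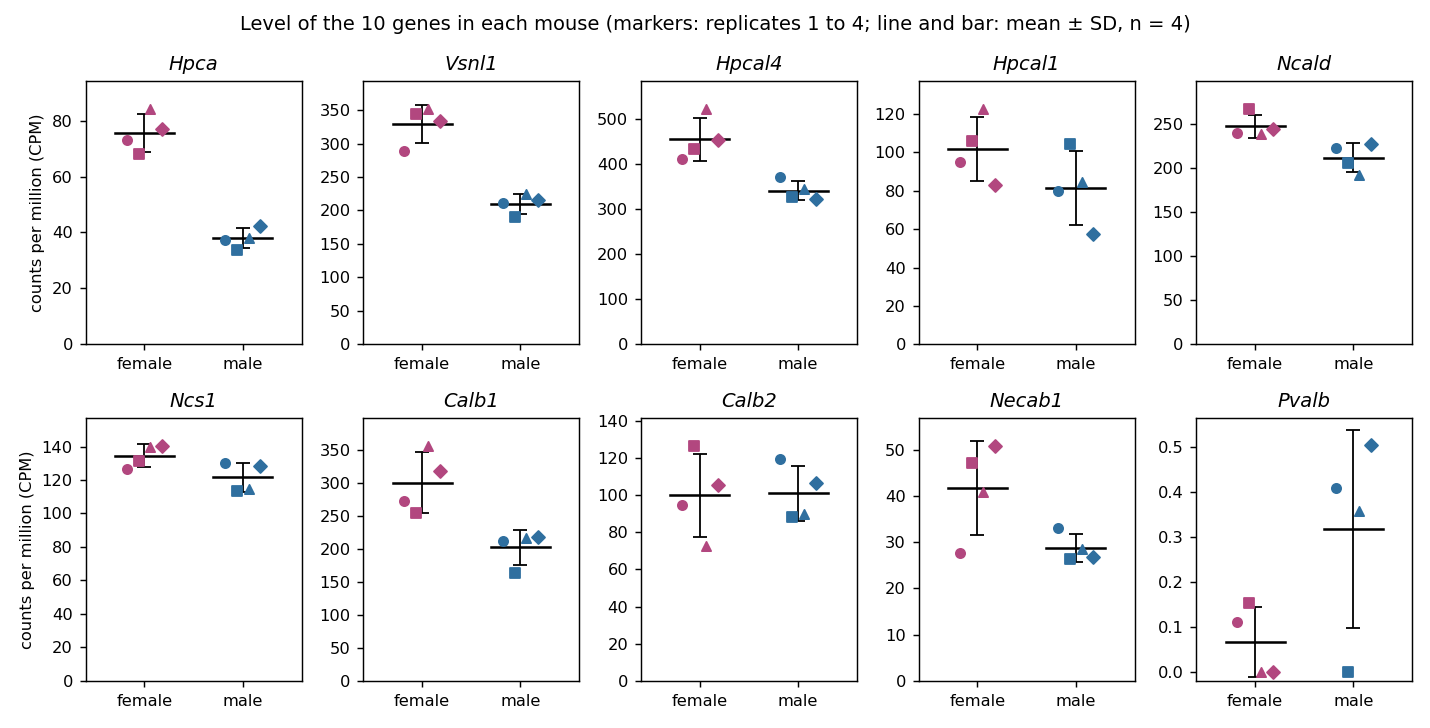
CPM of each gene in the 4 females and 4 males, each panel with its own axis; marker shapes give replicates 1 to 4, and the line and bar give mean ± SD. Females and males do not overlap for *Hpca*, *Vsnl1*, *Hpcal4*, *Ncald* and *Calb1*, and they overlap for the other 5.

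**Figure D3:**
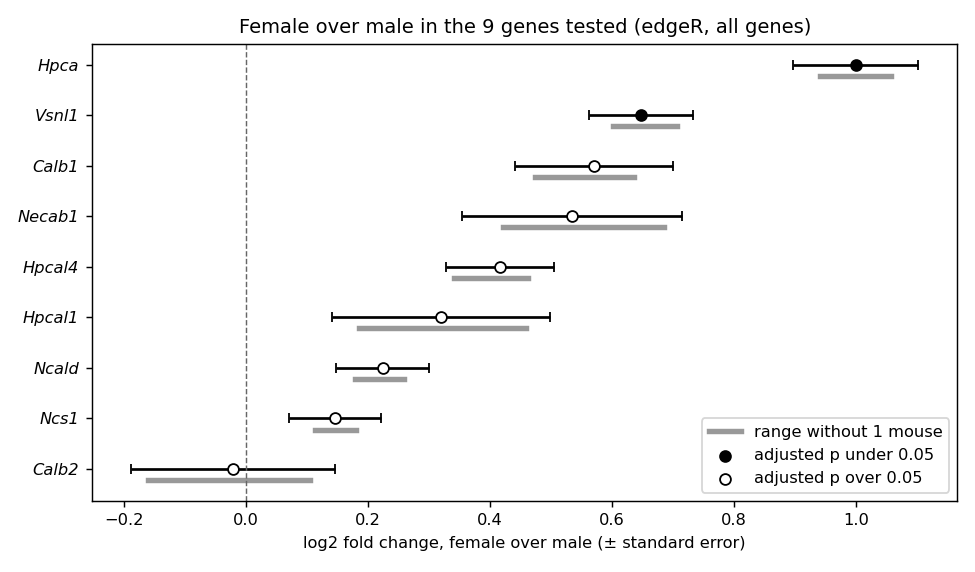
Log2 fold change, female over male, with its standard error (points and bars) and the range over the fits that leave out 1 mouse (gray bars). Filled points, *Hpca* and *Vsnl1*, have an adjusted p under 0.05, and the range of *Calb2* crosses 0.

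Marker genes of neurons and of other cells were measured in the same libraries. The summed level of 6 pan-neuronal genes (*Snap25*, *Syt1*, *Rbfox3*, *Tubb3*, *Stmn2*, *Elavl4*) lay between 1679 and 2065 CPM in females and between 1257 and 1588 CPM in males, so that these groups did not overlap. All 6 had a positive log2 fold change, against 49.4% of all genes tested, with a median of 0.31. By edgeR 0 of 6 passed (3 at an unadjusted p under 0.05 and 3 by DESeq2). The 5 microglial genes summed to 161 to 893 CPM in females and 364 to 1761 CPM in males, the 5 astrocytic genes to 74.7 to 326 and 245 to 450 CPM, and the 5 oligodendrocyte genes to 458 to 2071 and 829 to 1817 CPM. All 15 of these glial genes had a negative log2 fold change, 0 passed by edgeR (3 microglial, 1 astrocytic and 1 oligodendrocyte gene at an unadjusted p under 0.05) or by DESeq2, and the medians were -1.22, -0.80 and -0.73. The 2 precursor genes of oligodendrocytes summed to 42.2 to 111 CPM in females and 51.1 to 282 CPM in males, and both were higher in males at an unadjusted p under 0.05, with 0 passing by edgeR and 1 (*Cspg4*) by DESeq2. At an unadjusted p under 0.05 by edgeR stood 20.5% of all genes tested. The summed ranges of all 4 glial lists overlapped between the sexes. In a bulk library, fewer cells of a type and less RNA per cell cannot be told apart.

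Genes used as markers of neighbouring nuclei were also detected, and whether their reads came from the SST neurons or from other cells was not tested. The 6 genes of the ventromedial list summed to 552 to 667 CPM in females and 385 to 500 CPM in males, without overlap, but *Dlk1* alone (259 to 545 CPM) made up most of this. Without it the sum was 123 to 280 CPM in females and 69.1 to 196 CPM in males, which overlapped, as did the list means of log2 CPM. Of the 6 genes, 5 had a positive log2 fold change, against 49.4% of all genes tested, with a median of 0.42. By edgeR 0 passed, 1 stood at an unadjusted p under 0.05, against 20.5% of all genes, and by DESeq2 0 passed. Log2 fold changes were 1.92 for *Fezf1*, 1.22 for *Adcyap1*, 0.54 for *Slc17a6*, 0.30 for *Dlk1* and 0.01 for *Sox14*. *Nr5a1*, a defining gene of that nucleus, was at -0.44. The 7 arcuate genes summed to 139 to 338 CPM in females and 296 to 517 CPM in males. The 4 thalamic genes summed to 63.3 to 101 and 93.3 to 131 CPM and the 6 telencephalic genes to 6.44 to 16.6 and 3.66 to 7.05 CPM. The 4 genes of SST and GABAergic neurons lay between 987 and 1568 CPM in females and between 883 and 1351 CPM in males. The endothelial, ependymal and glutamatergic lists overlapped between the sexes, at 20.9 to 68.3, 15.8 to 41.0 and 51.6 to 141 CPM over the 8 mice.

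Fits with a list mean as a covariate were compared with the fit on sex alone. With the mean of the pan-neuronal list as a covariate, chosen after the data were seen, the log2 fold change was 0.93 for *Hpca*, 0.48 for *Vsnl1*, 0.29 for *Calb1* and 0.15 for *Hpcal4*. None of these passed in that fit (adjusted p by edgeR of 0.282, 0.430, 0.815 and 0.822), in which 2 of 15194 genes were called in all. With the microglial mean as a covariate *Hpca* passed at a log2 fold change of 0.97 (adjusted p = 0.0274 by edgeR), and *Vsnl1* did not at 0.56 (adjusted p = 0.0998). With the ventromedial mean, *Hpca* was at 0.93 (adjusted p = 0.0604 by edgeR) and *Vsnl1* at 0.61 (adjusted p = 0.0924). *Calb1* dropped to 0.45 with the microglial mean and 0.52 with the ventromedial mean, and *Hpcal4* gave 0.27 and 0.49. The part of the astrocytic, oligodendrocyte and arcuate genes in these values was not tested.

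**Figure D4:**
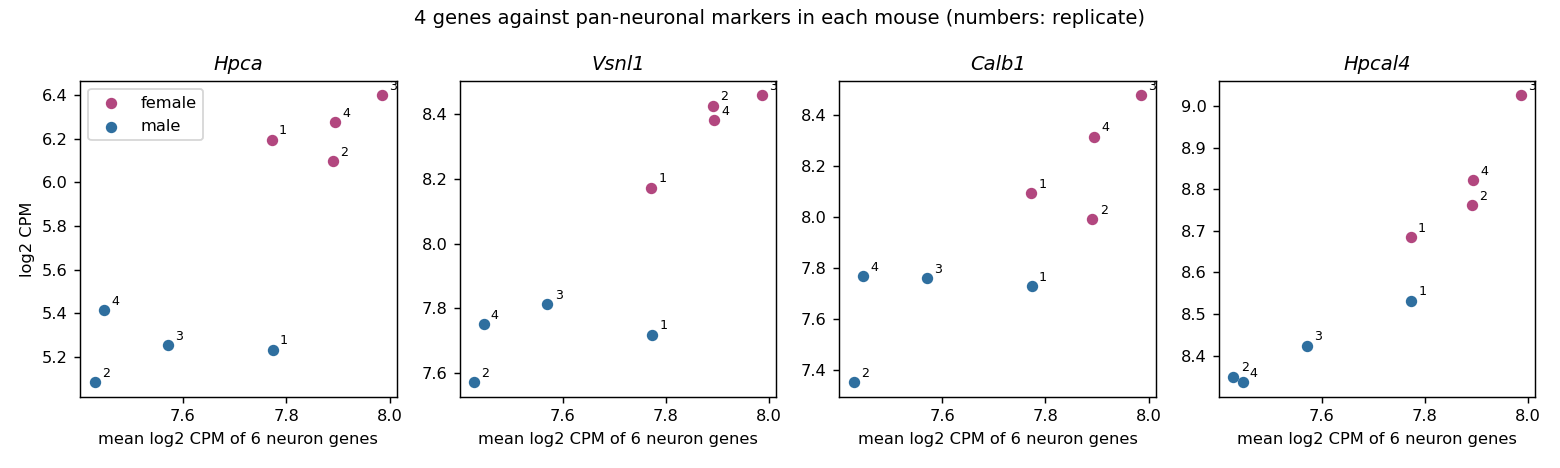
Log2 CPM of 4 genes against the mean log2 CPM of 6 pan-neuronal genes, with 1 numbered point per mouse. Females lie to the upper right of most males, and the correlation over the 8 mice is 0.83 for *Hpca* and 0.95 for *Hpcal4*.

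Transcripts of the genes that differed were examined next, since each gene value is a sum over transcripts. *Hpca* has 9 annotated coding transcripts and 8 received counts. Hpca-201 held between 28.9% and 56.8% and Hpca-209 between 23.7% and 64.2% of the gene in each mouse, and the shares of both overlapped between the sexes. Hpca-202 received 55.8, 389 and 111 estimated counts in females 1, 3 and 4 and rounded to 0 in female 2 and in every male. Transcripts of *Hpca* share most of their sequence, so the division of reads among them by kallisto is uncertain, and no test was made. *Vsnl1* was counted mainly as Vsnl1-201, and Vsnl1-202 made up 11.7% to 17.9% in females and 9.26% to 15.3% in males.

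*Calb1* has a single coding transcript, Calb1-201, which held 80.2% of its counts. The other 19.8% fell on Calb1-202 and Calb1-203, which are annotated as retained introns. These are 701 and 736 bases long, against 4222 for Calb1-201, so they weigh more in TPM, which is per length, than in counts. The mean of 249 TPM for *Calb1* thus holds a larger retained-intron part than 19.8%, and is not a level of coding transcript alone. The coding share was 78.4% to 82.6% over the 8 mice and did not separate the sexes. Transcripts not annotated as protein coding held 2.10% of *Ncs1* (annotated for nonsense-mediated decay), 1.5% of *Ncald* and 0.199% of *Hpcal4* counts. *Necab1* was divided between Necab1-201 (61.1%) and Necab1-202 (38.9%), and all counts of *Pvalb* were on Pvalb-202.

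**Figure D5:**
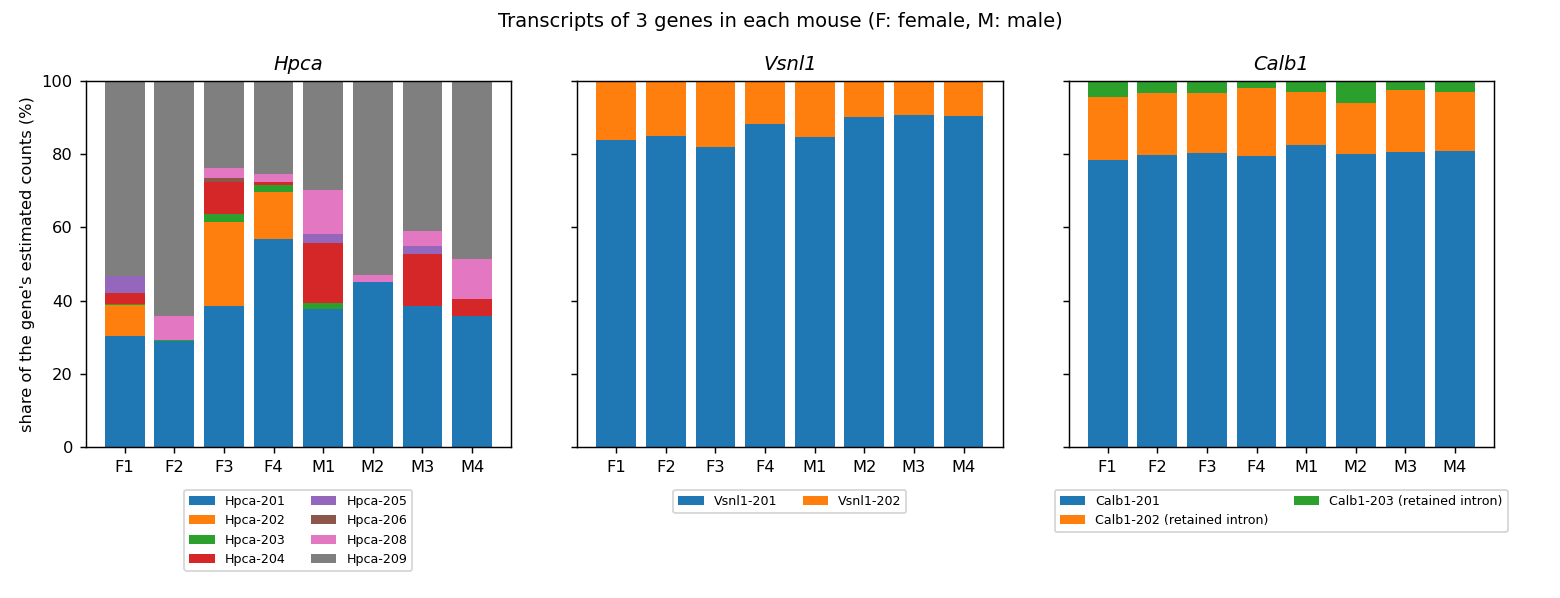
Share of each transcript in the estimated counts of *Hpca*, *Vsnl1* and *Calb1*, as stacked bars for females 1 to 4 (F) and males 1 to 4 (M). Shares of *Calb1* are even, at 78.4% to 82.6% for Calb1-201, while those of *Hpca* vary between mice of the same sex.

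Most pairs of members had a positive correlation across mice, and fewer did once the sexes were set apart. The following correlations are over 8 libraries that share a sort and differ in depth and cell makeup, and they are a description. Over the 36 pairs of tested members the median r of log2 CPM was 0.69, with 31 positive, and it was 0.28 with 23 positive once the mean of each sex was removed. *Hpca* and *Vsnl1* had an r of 0.96 over all mice and 0.50 within sex. *Hpca* and *Calb1* had an r of 0.93 and 0.91, so these covaried within each sex as well. *Calb2* had a negative r with 5 of the other 8 members, the lowest at -0.45 with *Hpcal1*, and within sex it was closest to *Ncald* (r = 0.75). *Hpcal1* had a negative r within sex with 7 of the other 8 members, with *Hpcal4* the exception at 0.35, and *Ncald* with 4 of 8.

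Relations to cell markers differed between members in the same way. *Hpcal4* was closest to the pan-neuronal list (r = 0.95, within sex 0.84) and was opposite to the microglial (r = -0.86, within sex -0.90) and astrocytic lists (r = -0.87, within sex -0.92). *Hpca* had an r of 0.83 with the pan-neuronal list that was 0.20 within sex, and of -0.62 with the microglial list that was -0.17 within sex, whereas its r of -0.71 with the astrocytic list was -0.74 within sex. *Calb1* was opposite to the astrocytic list (r = -0.88, within sex -0.87) and *Necab1* to the oligodendrocyte list (r = -0.89, within sex -0.85). *Hpcal1* was highest in mice with much SST and GABAergic signal (r = 0.77, within sex 0.72) and within sex ran against the ventromedial list (r = -0.86).

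The genes most like each member were sought by r of log2 CPM over the 8 mice among 10019 genes with a mean of at least 10 CPM. The top r was at least 0.92 for every member. Closest to *Hpca* were *Nrgn*, the calmodulin-binding protein neurogranin (r = 0.99), *Slit3* (r = 0.99) and *Eif4g3* (r = 0.98). Within sex their r was 0.70, 0.92 and 0.83. *Nrgn* also differed between the sexes, with a log2 fold change of 1.36 and an adjusted p of 0.00154 by edgeR. Closest to *Vsnl1* were *Yod1*, *Gabbr2* and *Sema6b* (r = 0.98 each), to *Hpcal4* were *Pfkp*, *Crym* and *Rbfox3*, and to *Calb1* were *Trim24*, *Scn8a* and *Sptb*. The neighbours of *Calb2* were *Mad1l1*, *Emb* and *Gtf3c6* (r = 0.91 to 0.92), those of *Hpcal1* were *Slc35b4*, *Gne* and *Il1rapl2*, and those of *Ncald* were *Vdac3-ps1*, *Decr2* and *Exosc7*. *Ncs1* was most like *Dicer1*, *Ercc6l2* and *Ptpru*, and *Necab1* like *Ccdc30*, *Pxylp1* and *Lsm11*.

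Promoters of the genes that passed were compared because both were higher in females. Sequences around annotated starts were taken from the RefSeq promoter table (GRCm38.p6) and were matched for 6 of the 10 members. The windows of *Hpca* at the start of Hpca-201 (chr4:129121254-129121553, minus strand) and of *Vsnl1* at its most upstream start (chr12:11436529-11436828, minus strand) are shown 5′ to 3′. Capitals mark the GC box (GGGCGG, or CCGCCC on the other strand) and the arm of an estrogen response element (GGTCA, or TGACC on the other strand).
Hpca promoter: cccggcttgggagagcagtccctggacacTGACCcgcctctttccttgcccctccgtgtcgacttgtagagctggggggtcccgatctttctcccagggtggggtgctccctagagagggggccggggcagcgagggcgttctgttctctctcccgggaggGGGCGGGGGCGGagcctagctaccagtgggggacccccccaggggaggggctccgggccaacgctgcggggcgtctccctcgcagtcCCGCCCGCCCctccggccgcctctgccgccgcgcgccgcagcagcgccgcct
Vsnl1 promoter: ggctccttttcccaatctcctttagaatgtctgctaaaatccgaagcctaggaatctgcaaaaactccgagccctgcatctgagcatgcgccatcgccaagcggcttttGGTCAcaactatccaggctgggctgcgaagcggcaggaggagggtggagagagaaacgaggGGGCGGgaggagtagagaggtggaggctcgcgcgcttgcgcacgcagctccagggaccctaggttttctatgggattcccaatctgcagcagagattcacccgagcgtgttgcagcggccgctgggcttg
The *Hpca* window was 74.0% G and C with 27 CpG dinucleotides and 4 GC boxes, 2 pairs of which directly adjoin or overlap, and the *Vsnl1* window was 58.7% G and C with 18 CpG dinucleotides and 1 GC box. Each window shown held 1 such arm. Of the windows not shown, 1 of *Hpca* (chr4:129120123-129120422) and 1 of *Vsnl1* (chr12:11435602-11435901) held 0 arms and 0 GC boxes. The remaining *Hpca* window held 1 of each. Windows of *Hpcal4* and *Hpcal1*, which did not pass, also held 1 arm, and that of *Ncs1* held 0. For *Pvalb*, which was not tested, the window at chr15:78204188-78204487 held 1 arm and that at chr15:78206351-78206650 held 0. Among 32851 promoter windows, 35.7% held a GC box and 40.5% an arm, so neither letter pattern is rare. The full element, GGTCA and TGACC separated by 3 bases, was found in 0.07% of windows and in 0 windows of the members. A match describes letters and not a bound site.

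Other calcium genes were counted from lists drawn up by family. Of 7 related sensor and KChIP genes, 4 were tested, all of them *Kcnip* genes, whose KChIP products modulate A-type potassium channels. Of these 4, 0 passed by edgeR, 1 stood at an unadjusted p under 0.05, against 20.5% of all genes, and 1 passed by DESeq2. *Kcnip2* was the most abundant of these at 62.9 TPM, with 51.6 to 102 CPM in females and 32.1 to 49.3 CPM in males. Its sexes did not overlap, and its log2 fold change of 0.85 ± 0.211 did not pass (adjusted p = 0.100 by edgeR). *Kcnip1* (38.8 TPM) and *Kcnip4* (22.1 TPM) overlapped between the sexes.

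Of 25 other EF-hand buffers and sensors, 20 were tested and 0 passed by edgeR. At an unadjusted p under 0.05 by edgeR stood 5 higher in females and 2 higher in males, against 20.5% of all genes. DESeq2 called 4 and 1, where it called 4.38% of all genes with an adjusted p higher in females. A positive log2 fold change was seen in 10 of the 20, against 49.4% of all genes tested, and the median was 0.04. Among the most abundant were *Calm2* at 2778 and *Calm3* at 1906 TPM, both above every one of the 10 members. Their log2 fold changes were 0.27 and 0.21, and neither passed. *Cabp2* was under 3 counts in every mouse.

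Of 11 partners of the members, among them calcineurin subunits and receptors, 9 were tested, 0 passed by edgeR (4 at an unadjusted p under 0.05, against 20.5% of all genes, and 2 by DESeq2) and the median log2 fold change was 0.09. The catalytic calcineurin subunit *Ppp3ca* (290 TPM) was at 413, 417, 530 and 432 CPM in females and at 324, 279, 312 and 296 CPM in males, without overlap (log2 fold change 0.57 ± 0.0957, adjusted p = 0.0655 by edgeR). *Grk2* (173 TPM) and *Ppp3cb* (91.1 TPM) had log2 fold changes of -0.14 and 0.23. *Trpv5* was under 3 counts in every mouse.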

How the data were processed

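The authors sorted tdTomato-positive cells, sequenced 1 single-end library per mouse and quantified transcripts of mm10 with kallisto 0.46.2. The deposited files hold estimated counts, which are not normalized and need not be whole, and TPM for each transcript, in 2 blocks per mouse of unstated origin. TPM of each block sum to 1000000.

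Counts were summed over both blocks and over the transcripts of each gene (GENCODE M21), and rounded. TPM were summed per gene and averaged over the blocks, where the design had assumed a single column. Transcripts without a match held 0.429% to 0.611% of counts and were left out. No column of per-sample values was left unused. The sexes were compared with edgeR 4.0.16 in R 4.3.3 (TMM, default filter by sex, quasi-likelihood test, Benjamini-Hochberg adjustment over all genes tested, threshold 0.05). DESeq2 1.42.0 was the alternative, and the submitters' processing notes name DESeq2 2.11.40.6. Log2 CPM used a prior count of 2. The scripts were tested on simulated data. Other alternatives were another scaling, other filters, each block alone, a replicate block, list means as covariates and leaving out each mouse. The pan-neuronal covariate was added after the data were seen.

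The members, gene lists and cell markers were chosen with earlier results of these data known. Named genes are the members, the 3 genes most like each, and from each list the genes called, the 3 highest by TPM and those under 3 counts in every mouse. A result that this rule would name is not reported here. *Cspg4*, *Dlk1*, *Nr5a1*, *Sox14*, *Fezf1*, *Adcyap1* and *Slc17a6* were singled out after their values were seen. Protein comparisons and EF-hand matches were computed with Biopython 1.88 from coding transcripts. In situ hybridization and feeding data were not analysed here.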

Additional observations from a re-analysis of the deposited data

Results flagged for a closer look

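*Calb1* was at 163 CPM in male 2 and between 212 and 218 CPM in the other 3 males, so that male 2 stood apart from its group by 88.9% of the whole range of the group. Such a gap was sought in 20 groups, a member in each sex, and chance gives about 1 in 20. Without male 2 the log2 fold change of *Calb1* was 0.48 (adjusted p = 0.202 by edgeR), against 0.57 with all mice.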

How the results depend on the processing

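The log2 fold change of *Hpca* stayed between 0.91 and 1.07 under 19 alternatives and passed in 16. Over all genes, 24 passed, against 1052 with DESeq2, 1 with the replicate block, 2, 13 and 14 with the pan-neuronal, microglial and ventromedial means as covariates, and 8 to 415 without 1 mouse, where leaving out female 1 gave 415 and male 1 gave 411. Of the members, 2 passed, against 4 with DESeq2, 0 with the replicate block, 1 in block 2 alone, 1 with the microglial mean, 0 with the ventromedial mean, 0 with the pan-neuronal mean, and 1 to 4 without 1 mouse, with 4 without female 1, 3 without male 1 and 1 without any other. Where 0 passed, 6, 5 and 2 members had an unadjusted p under 0.05 by edgeR with the replicate block, the ventromedial and the pan-neuronal mean, against 15.7%, 19.1% and 7.85% of all genes in those fits. In block 2 alone the adjusted p of *Vsnl1* was 0.0526 by edgeR. The log2 fold change of *Calb2*, -0.02, became 0.0318 with upper quartile factors and 0.0148 in block 2 alone. It ranged from -0.16 to 0.11 without 1 mouse, and was positive without female 1, female 3, male 1 or male 4.

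The replicate block gave *Hpca* a log2 fold change of 1.00 (adjusted p = 0.0683) and *Vsnl1* 0.65 (adjusted p = 0.152, both by edgeR). Same-numbered females and males correlated at -0.40, -0.16, 0.04 and 0.07 in their deviations from the sex means. The labels do not say whether mice with the same number share a litter or sorting day, and these correlations cannot decide it. By rank of TPM, *Calb1* was at 6 with protein-coding transcripts alone and at 5 with CPM over effective length. A block leaves fewer degrees of freedom, and the causes of these changes in calls and ranks were not tested. *Pvalb*, with at most 5 counts per mouse, cannot be compared at this depth.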

Other observations

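Genes that clear calcium or release it from stores were listed by function, and their values are a description. Of 19 such genes all were tested and 0 passed by edgeR (13 at an unadjusted p under 0.05, against 20.5% of all genes). DESeq2 called 11 higher in females, where it called 4.38% of all genes with an adjusted p higher in females. A positive log2 fold change was seen in 17 of the 19, against 49.4% of all genes tested. The median was 0.44, beside 0.42 for the 9 calcium-binding genes tested and -0.0043 over all genes. Every female lay above every male in 13 of the 19, where this held for 6.48% of all genes tested. The plasma membrane pump *Atp2b4* was the most abundant at 334 TPM. It was at 555, 555, 876 and 613 CPM in females and at 394, 297, 381 and 289 CPM in males. Its log2 fold change was 0.93 ± 0.169 and did not pass (adjusted p = 0.0684 by edgeR). *Atp2b1*, another pump, was at 227 TPM (log2 fold change 0.37) and *Atp2a2*, the pump of the endoplasmic reticulum, was at 175 TPM, overlapped between the sexes and had a log2 fold change of 0.15. The summed pan-neuronal genes likewise did not overlap between the sexes and were higher in females, and their part in these values was not tested.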
